A study of Drosophila melanogaster with 12 samples.

Results

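The genes described here encode the subunits of the proteasome in Drosophila melanogaster. They were taken as every gene whose current symbol starts with Prosalpha, Prosbeta, Rpn or Rpt followed by a digit and that has a probe set matched to it alone. Of 11982 genes with such a probe set, 40 fitted, each with 1 probe set. Of them 26 are canonical subunits, with 12 in the core particle (Prosalpha2 to Prosalpha7 and Prosbeta2 to Prosbeta7) and 14 in the regulatory particle (Rpn1, Rpn2, Rpn3, Rpn5, Rpn6, Rpn7, Rpn8, Rpn11, Rpn12, Rpn13, Rpt2, Rpt3, Rpt4 and Rpt5). The other 14 are paralogs, marked by a T or an R after the digits, 10 of core and 4 of regulatory subunits. Another 8 symbols that fit the name, Prosalpha1, Prosalpha1R, Prosbeta1, Rpn9, Rpn10, Rpt1, Rpt6 and Rpt6R, had no probe set matched to them alone and were not analysed here.

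The RNA came from Kc167, a cultured fly line of embryonic origin with features of blood cells. Wells of these cells received, for 30 min, medium conditioned with Unpaired (UPD), the main ligand of the JAK/STAT pathway, or Mock conditioned medium, which was then exchanged for plain Schneider's medium. Total RNA was taken 2, 4 or 10 h after the conditioned medium was first added. Each of the 6 groups of medium and time had 2 arrays, described as biological duplicates, so 12 Affymetrix arrays were measured and p-values rest on the spread between duplicate wells.

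The proteasome is the protease that degrades proteins marked with ubiquitin in the cytosol and nucleus. Its core particle is a barrel of alpha rings, which gate the entrance, around beta rings, which hold the proteolytic sites. The regulatory particle caps the barrel: Rpt subunits form a ring of ATPases that unfolds the substrate, and Rpn subunits bind ubiquitin, remove it and hold the cap together. In many organisms the subunit genes are expressed together, since the complex needs its subunits in fixed proportions.

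Values below are the authors' deposited log2 values, and a difference is a difference of group means on that scale with its standard error (SE) from limma, each group having n = 2. The SE uses 1 spread per gene, pooled over all 6 groups. Duplicates of canonical genes had a median standard deviation (SD) of 0.02 to 0.20 at 2 and 4 h, and of 0.46 and 0.56 at 10 h. Their SEs and p-values at 2 and 4 h thus also draw on the wider spread at 10 h. A gene was called changed where limma's Benjamini-Hochberg adjusted p over all 18769 probe sets was under 0.05. All 26 canonical subunits were well measured. The 12 core genes lay between 10.02 and 12.52 on all arrays and the 14 regulatory genes between 8.87 and 11.68, against a median of 1.74 for the mean level of all probe sets tested. Genes of blood cells were also present, with srp, a GATA factor of blood cell fate, between 7.80 and 9.61 and Hml, a hemolectin, between 7.26 and 10.58, while eater, NimC1 and He, also used as blood cell markers, lay between -2.93 and 4.81.

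At 2 h after UPD the canonical subunits sat slightly below Mock. All 26 had a negative difference, from -0.19 for Rpn5, a scaffold subunit of the lid, to -0.01 for Prosbeta4, a structural beta subunit. Their median was -0.06, beside -0.11 for the 9384 probe sets above the median level (the brighter probe sets). Of the brighter probe sets, 75.7% had a negative difference too. As deposited, the medians of whole arrays were themselves shifted by -0.05 from Mock to UPD. With one median per array for the brighter probe sets, the median difference of all 40 genes was 0.053. In 7 of the 26 both UPD arrays lay below both Mock arrays, 1 of the 12 core and 6 of the 14 regulatory genes, whereas 44.3% of the brighter probe sets did so. None of the 40 genes was called by limma at 2 h, where 0.00533% of all probe sets were called. An unadjusted p under 0.05 was found in 2 of the 40, both paralogs, and in 830 of all 18769 probe sets.

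At 4 h the order was turned. In 25 of the 26 canonical genes the UPD mean was above the Mock mean, with a median difference of 0.13, of 0.23 in the core and of 0.12 in the regulatory particle, beside 0.02 for the brighter probe sets. Both UPD arrays lay above both Mock arrays in 11 of the 26 genes, 6 of the core and 5 of the regulatory particle, against 17.9% of the brighter probe sets. Prosbeta3, a structural beta subunit, stood at 11.84 and 11.57 on the Mock arrays and at 12.13 and 12.19 on the UPD arrays of 4 h. Its difference of 0.45 ± 0.33 (SE, n = 2) was the highest of the 26, with no overlap between media and a limma adjusted p of 1. None of the 40 genes was called at 4 h, where 0% of all probe sets were called. Among the 40, 2 paralogs had an unadjusted p under 0.05, beside 757 of all 18769 probe sets.

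The median difference of the canonical genes at 4 h rested on 1 library. Their share with separated arrays, 42.3% beside 17.9% of the brighter probe sets, depended on that library too. On Mock 4 h replicate 2 the core genes had a median of -0.40, each gene being set to its own mean over 12 arrays, and the regulatory genes one of -0.18, whereas the brighter probe sets had a median of 0.15 there. All 12 core genes were lower on that array than on Mock 4 h replicate 1. The hybridisation spikes, control RNAs added to every array, averaged 7.95 on this array and 9.40 to 10.34 on the others, and their part in the result was not tested. Against Mock 4 h replicate 1 alone, the median difference of the 26 canonical genes at 4 h was 0.01. Of these genes 12 had both UPD arrays above that array, a share of 46.2%, beside 49.2% of the brighter probe sets. Both UPD arrays lay below it in 6 of the 26.

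**Figure D1:**
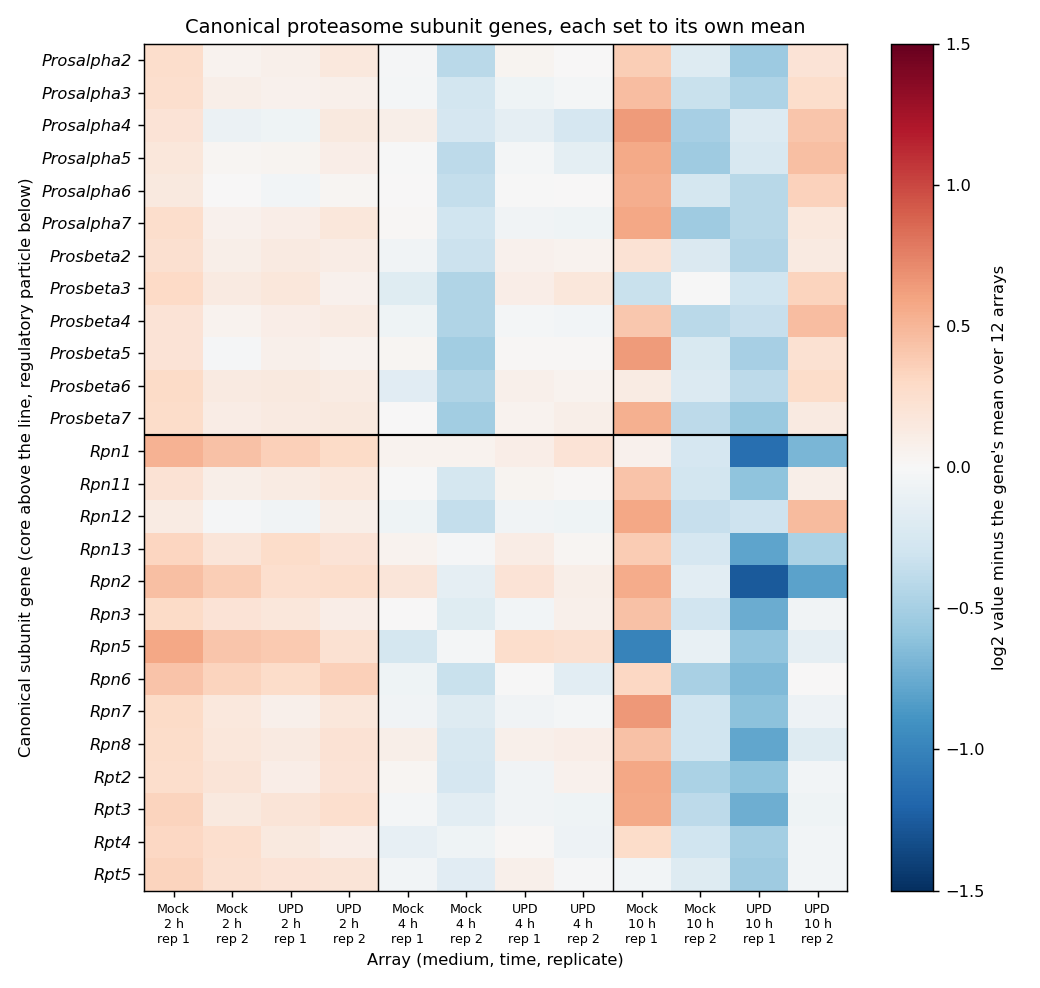
Log2 values of the 26 canonical subunit genes on the 12 arrays, each gene set to its own mean over all arrays (red above, blue below). Rows above the line are the 12 core genes and rows below it the 14 regulatory genes. Most columns keep 1 colour from top to bottom. Rpn1 and Rpn2 are the deepest blue on both UPD 10 h arrays, and replicate 2 of that group is red in the core rows and mostly pale or blue in the regulatory rows.

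At 10 h after UPD the regulatory particle genes were lower relative to Mock than the core genes. The median difference was -0.43 over the 14 regulatory genes, which ranged from -1.23 to 0.19, and -0.15 over the 12 core genes, which ranged from -0.34 to 0.19. The brighter probe sets had a median of -0.41. In RNA pooled from a well, fewer cells holding a transcript and less of it per cell cannot be told apart. Both UPD arrays lay below both Mock arrays in 3 regulatory genes, Rpn1, Rpn2 and Rpn13, and in 0 of the 12 core genes, whereas 36.8% of the brighter probe sets were separated in this direction. None of the 40 genes was called by limma, where 1.06% of all probe sets were called. An unadjusted p under 0.05 was found in 3 of the 40, and in 3237 of all 18769 probe sets.

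Rpn2 and Rpn1 are the large scaffold subunits at the base of the cap. Rpn2 stood at 10.68 and 9.96 on the Mock arrays and at 8.87 and 9.32 on the UPD arrays of 10 h. Both UPD arrays were below every other array of the series for this gene. The difference of -1.23 ± 0.35 (SE, n = 2) had a limma adjusted p of 0.126, and the adjusted p was under 0.05 in 3 of the 19 alternative settings tried, among them quantile normalization with 0.0403.

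Rpn1, which docks the shuttle proteins that deliver ubiquitinated substrates, stood at 10.16 and 9.83 in Mock and at 8.96 and 9.40 in UPD at 10 h. Its media did not overlap, and its difference of -0.82 ± 0.30 (SE, n = 2) had a limma adjusted p of 0.21. Rpn13, a ubiquitin receptor that sits on Rpn2 and recruits the deubiquitinating enzyme Uch-L5, stood at 10.50 and 9.87 in Mock and at 9.33 and 9.65 in UPD. Its difference was -0.70 ± 0.32 (SE, n = 2) with a limma adjusted p of 0.322. The next lowest were Rpn8, the partner of the deubiquitinating subunit Rpn11, at -0.56 ± 0.37 and Rpn7, a scaffold subunit of the lid, at -0.52 ± 0.39, with limma adjusted p-values of 0.51 and 0.57. For both of these genes UPD 10 h replicate 2 lay between the Mock arrays.

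The catalytic subunits measured were Prosbeta2, which carries the trypsin-like site, and Prosbeta5, which carries the chymotrypsin-like site. Prosbeta2 stood at 11.55 and 11.12 in Mock and at 10.91 and 11.48 in UPD at 10 h, a difference of -0.14 ± 0.33 (SE, n = 2) with a limma adjusted p of 0.89. Prosbeta5 stood at 12.12 and 11.26 in Mock and at 10.98 and 11.72 in UPD, a difference of -0.34 ± 0.42 (SE, n = 2) with a limma adjusted p of 0.765. In both genes the media overlapped and the duplicates were further apart than the group means.

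The highest of the canonical genes at 10 h were Prosbeta3 at 0.19 ± 0.33, Rpn5 at 0.19 ± 0.37, Prosalpha5 at 0.08 ± 0.44, Prosbeta4 at 0.06 ± 0.40 and Prosalpha4 at 0.03 ± 0.44 (SE, n = 2), with limma adjusted p-values from 0.843 to 0.985. Each of these 5 changed sign when 1 of the arrays at 10 h was left out. Mock 10 h replicate 1 was unlike the rest for Prosbeta3 and Rpn5. There Prosbeta3 stood at 11.69, below its 12.02 on replicate 2, and Rpn5 at 10.11, below its 10.99. The other 24 canonical genes were all higher on Mock 10 h replicate 1 than on replicate 2.

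**Figure D2:**
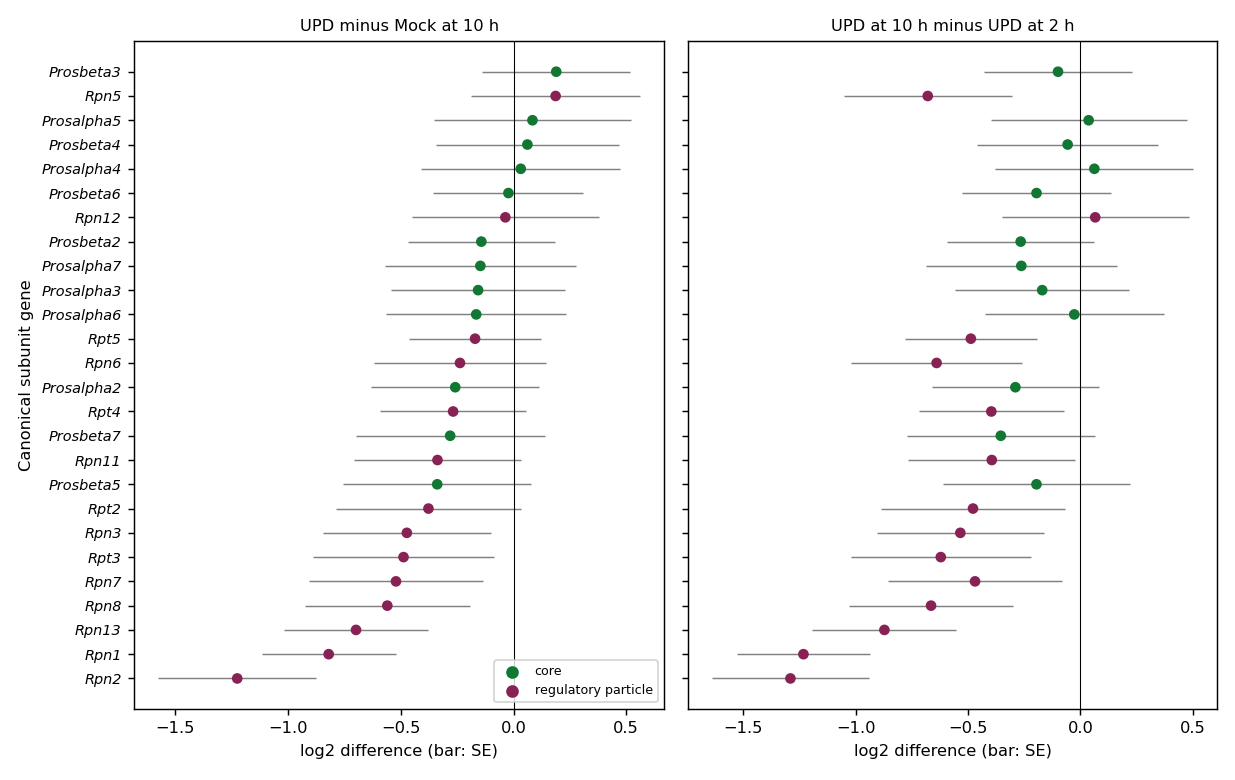
Log2 difference of group means for each of the 26 canonical subunit genes, UPD minus Mock at 10 h (left) and UPD at 10 h minus UPD at 2 h (right), with SE as bars and 2 arrays a group. Core genes are green and regulatory genes purple, in the order of the left panel. The lowest are Rpn2 at -1.23 and Rpn1 at -0.82 on the left, and Rpn2 at -1.29 and Rpn1 at -1.23 on the right.

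The effect of the medium did not pass the test in any member when it was averaged over the 3 times. There 0% of all probe sets were called by limma. An unadjusted p under 0.05 was found in 0 of the 40 genes, and in 2024 of all 18769 probe sets. The median over the canonical core was -0.01 and over the canonical regulatory particle -0.14, beside -0.18 for the brighter probe sets. The test of whether the UPD effect differed between 10 and 2 h called none of the 40 genes and 0% of all probe sets. It gave an unadjusted p under 0.05 in 2 of the 40, both paralogs, and in 1763 of all 18769 probe sets. In that test Rpn2 differed by -1.08 ± 0.49 (SE) with a limma adjusted p of 0.55.

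Between 2 and 10 h within the UPD arrays, most regulatory genes were lower at the late time and most core genes overlapped. In 13 of the 14 regulatory genes both 10 h arrays lay below both 2 h arrays, with Rpn12, a small lid subunit, as the exception at 0.07. In the core this held for 1 of the 12, Prosbeta7 at -0.35, and 66.9% of the brighter probe sets were separated this way. The UPD 10 h duplicates lay on opposite sides of the 2 h arrays in the core. With each gene set to its own mean over all arrays, the core median was -0.41 on replicate 1 and 0.27 on replicate 2. At 2 h in UPD it was 0.09 and 0.11. The regulatory median was -0.64 and -0.06 at 10 h, and 0.18 and 0.20 at 2 h. The median difference was -0.58 in the regulatory particle and -0.18 in the core, beside -0.80 in the brighter probe sets. Called by limma were 2 of the 40 genes, Rpn1 and the paralog Prosbeta2R1, where 9.46% of all probe sets were called.

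Rpn1 stood at 10.44 and 10.37 on the UPD arrays of 2 h, at 10.18 and 10.30 at 4 h and at 8.96 and 9.40 at 10 h. Both UPD 10 h arrays were below every other array of the series for this gene. It fell by 1.23 ± 0.30 on the log2 scale from 2 to 10 h (SE, n = 2; 2.35-fold lower; limma adjusted p = 0.0445). On the Mock arrays Rpn1 went from 10.61 and 10.52 at 2 h to 10.16 and 9.83 at 10 h, without overlap, by -0.57 ± 0.30 with a limma adjusted p of 0.429. The call in UPD was lost when any of 9 arrays was left out, those of 2 and 4 h and UPD 10 h replicate 1, with adjusted p-values over all alternatives from 0.00111 to 0.58. It was also lost with a replicate block and with the arrays of 2 and 10 h alone. The difference itself was -0.71 under quantile normalization, -0.26 with the gene length trend removed and -0.19 with one median per array for the brighter probe sets, and the call was lost in these 3 settings too.

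Rpn2 stood at 10.38 and 10.39 on the UPD arrays of 2 h against 8.87 and 9.32 at 10 h. The times did not overlap, and its difference of -1.29 ± 0.35 (SE, n = 2) had a limma adjusted p of 0.0599. Rpn13 had a difference of -0.87 ± 0.32 with a limma adjusted p of 0.128. In Mock the same interval gave -0.21 for Rpn2 and -0.19 for Rpn13, with overlapping arrays in both. Whether the change with time differs between the media in Rpn1 was covered by the test of the UPD effect at 10 h against 2 h above, where its difference was -0.67 ± 0.42 with an adjusted p of 0.683.

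In Mock the change from 2 to 10 h was smaller for both particles, with a median of -0.11 in the core and -0.18 in the regulatory particle, beside -0.41 in the brighter probe sets. Both 10 h arrays lay below both 2 h arrays in 2 core genes, Prosbeta3 and Prosbeta6, and in 4 regulatory genes, Rpn1, Rpn5, Rpn6 and Rpt5, against 49.3% of the brighter probe sets. Rpn5 went from 11.68 and 11.52 to 10.11 and 10.99, by -1.05 ± 0.37 (SE, n = 2) with a limma adjusted p of 0.301. None of the 40 genes was called, where 0% of all probe sets were called. An unadjusted p under 0.05 was found in 3 of the 40, and in 2704 of all 18769 probe sets.

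From 2 to 4 h most canonical genes had lower means at the later time, and none passed the test. In Mock all 26 had a negative difference with a median of -0.34, beside -0.33 in the brighter probe sets, and 23 had both 4 h arrays below both 2 h arrays, against 67.8% of the brighter probe sets. In UPD 24 of the 26 had a negative difference and 22 were separated, against 60.7% of the brighter probe sets, with a median of -0.12 beside -0.20. None of the 40 genes was called in either medium, where 0% of all probe sets were called in Mock and 0.0107% in UPD. In each medium 1 of the 40, a paralog, had an unadjusted p under 0.05. Of all 18769 probe sets, 930 did in Mock and 1069 in UPD.

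To set the particles side by side on every array, each canonical gene was first set to its own mean over the 12 arrays. The median of the core minus the median of the regulatory particle was -0.07 and -0.14 on the Mock arrays of 2 h and -0.09 on each UPD array of 2 h. At 4 h it was 0.00 and -0.22 in Mock and -0.03 and -0.02 in UPD. At 10 h it was 0.06 and -0.01 in Mock and 0.23 and 0.33 in UPD. Both UPD 10 h arrays were above the 10 other arrays.

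On each UPD 10 h array all 12 core genes lay above the median of the regulatory genes, and on each array of 2 h 0 of the 12 did. Since each gene was centred over the same arrays, these counts depend on each other. Genes on the same array are not replicates either. The group means of the core minus the regulatory particle were 0.28 ± 0.07 in UPD and 0.02 ± 0.05 in Mock at 10 h (SD, n = 2), a difference of 0.25. An exact permutation test of 2 against 2 arrays cannot reach 0.05, so none was made. The pooled SD between duplicates of this measure was 0.08.

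**Figure D3:**
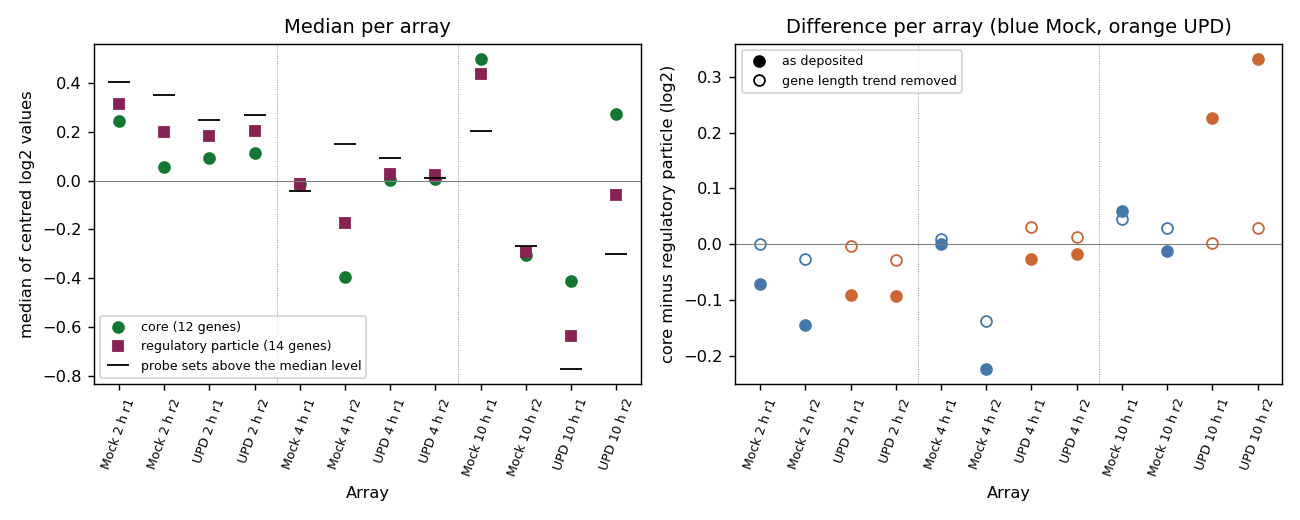
Left, the median per array of the centred log2 values of the 12 core genes (green circles), the 14 regulatory genes (purple squares) and the brighter probe sets (black dashes). Right, core minus regulatory particle on each array as deposited (filled) and after removal of the gene length trend (open), Mock in blue and UPD in orange. As deposited, the UPD 10 h arrays stand highest at 0.23 and 0.33, and with the trend removed they stand at 0.00 and 0.03.

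The difference between the particles moved with gene length. The genes of the 12 core subunits measure 914 to 1369 bp in the RefSeq annotation of Release 6, introns included, with a median of 1201 bp, and those of the 14 regulatory subunits 995 to 4500 bp with a median of 1818 bp. Across the 26 genes, the difference of UPD at 10 h from UPD at 2 h had a Pearson r of -0.85 and a Spearman rho of -0.92 with the log2 of gene length. These points share the same 4 arrays, and the same comparison over 7821 brighter probe sets gave -0.43 and -0.55. Within the 14 regulatory genes r was -0.77 and rho -0.83, and within the 12 core genes -0.43 and -0.52. For Mock at 10 h minus Mock at 2 h the 26 genes gave -0.41 and -0.54, with 0.50 and 0.24 within the core. Rpn8, the longest of the genes at 4500 bp, differed by -0.66 in UPD, less than the shorter Rpn1 and Rpn2. Rpn12, the shortest regulatory gene at 995 bp, was also the only regulatory gene above 0.

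Brighter probe sets were cut into 3 groups of about equal size by gene length, at 1899 and 4773 bp. From 2 to 10 h in UPD their medians were -0.33, -0.94 and -1.37 from the shortest to the longest group, and for UPD minus Mock at 10 h they were -0.11, -0.59 and -0.80. All 12 core genes and 9 of the 14 regulatory genes belong to the shortest group. When the trend of the values with gene length was removed from each array, a setting added after the data were seen, the core minus regulatory particle difference of UPD from Mock at 10 h was -0.02 in place of 0.25. From 2 to 10 h in UPD it was 0.03 in place of 0.37, and in Mock 0.05 in place of 0.13.

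Some measures of RNA quality differed between the times as well. The 3' minus 5' difference of an Act5C control probe set was 0.71 to 0.89 on the 2 h arrays, 0.72 to 1.17 on the 4 h arrays, 1.14 to 1.15 on the Mock 10 h arrays and 1.25 to 1.37 on the UPD 10 h arrays, where a higher value means less signal from the 5' end. A further Act5C control set gave 0.55 and 0.58 on the UPD 10 h arrays and 0.56 to 0.68 at 2 h. The eIF4a control set gave 0.58 to 0.74 at 2 h and, at 10 h, 0.73 and 1.21 in Mock and 1.04 and 0.93 in UPD. The Gapdh control set gave 0.23 to 0.48 at 2 h and, at 10 h, 0.34 and 0.25 in Mock and 0.52 and 0.24 in UPD. Of 9 blood cell markers, 3 were called lower in UPD than in Mock at 10 h, where 1.06% of all probe sets were called in either direction. From 2 to 10 h in UPD 5 of the 9 were called lower, where 9.46% of all probe sets were called. Of 9 testis germ line markers 1 was called lower in each of these contrasts, and of 2 neuron markers 0 in the first and 1 in the second. The part of these measures in the differences of the proteasome genes was not tested.

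**Figure D4:**
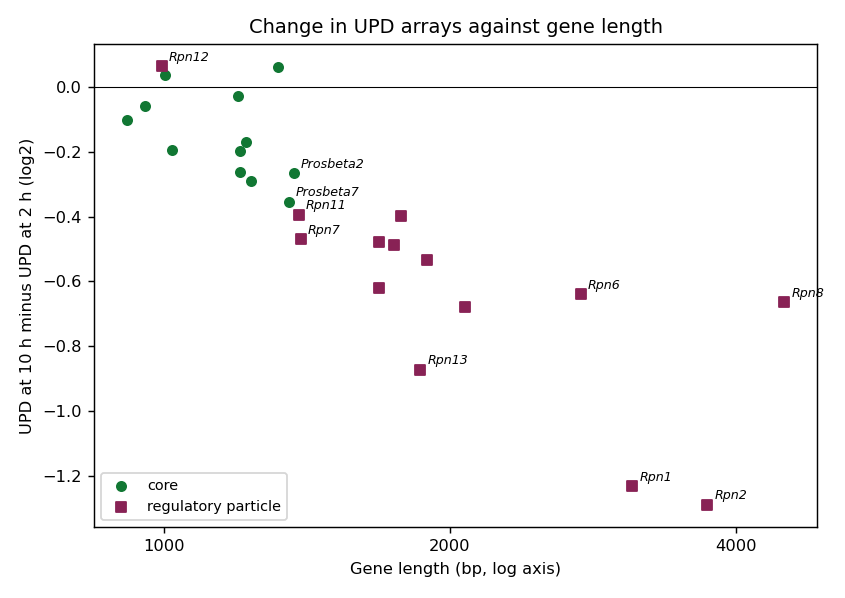
Each point is a canonical subunit gene, with its gene length in bp on a log axis and its log2 difference of UPD at 10 h from UPD at 2 h (core as green circles, regulatory particle as purple squares). The core genes are at most 1369 bp long and lie at or above -0.35, and Rpn1 and Rpn2 lie lowest among the longer genes.

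In the groups of 10 h and in Mock at 2 and 4 h, most or all canonical genes shifted in 1 direction from one array to its duplicate. On UPD 10 h replicate 2 all 26 were higher than on replicate 1, by 0.32 to 0.80 with a median of 0.65, beside a median of 0.55 in the brighter probe sets. The interquartile range of these shifts was 0.15 over the 26 genes and 0.52 over the brighter probe sets. In Mock at 10 h the median shift was -0.77, with Rpn5 at 0.89 and Prosbeta3 at 0.33 as the exceptions, beside -0.47 in the brighter probe sets. In Mock at 2 h all 26 genes were lower on replicate 2, with a median of -0.14 beside -0.07.

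In the UPD groups of 2 and 4 h the shifts were small and of mixed sign. At 4 h 10 of the 26 genes were higher on replicate 2, with shifts from -0.15 to 0.12, and at 2 h 16 of the 26 were, with shifts from -0.17 to 0.21. In Mock at 4 h, unlike these, only 3 of the 26 were higher on replicate 2. The median shift there was -0.28, beside 0.16 in the brighter probe sets. The SD between duplicates had a median over the canonical genes of 0.02 to 0.20 in the groups of 2 and 4 h and of 0.46 and 0.56 in those of 10 h, and limma pools these into 1 spread per gene. On single arrays the interquartile range of the centred core values was 0.06 to 0.24, where that of the brighter probe sets was 0.27 to 0.98.

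The 14 paralogs fell into a bright member and 13 far below it, called dim here. Rpt3R, a paralog of the ATPase Rpt3, lay between 7.88 and 9.08 on all arrays. At 10 h it stood at 9.02 and 8.15 in Mock and at 7.88 and 8.34 in UPD, with overlap, and differed by -0.48 ± 0.37 (SE, n = 2; limma adjusted p = 0.588). The other 13 had means over the arrays from -5.49 to 2.64 and single values from -8.25 to 3.86. Of the 14, 3 had a mean above the median level of 1.74, namely Rpt3R, Prosbeta2R2 at 2.64 and Prosalpha3T at 1.76. In Drosophila the T genes are known from the male germ line. Of 9 testis germ line markers 7 were dim here too, while bam, a germ cell differentiation factor, lay between 6.59 and 7.76 and topi, a testis transcription factor, between 2.19 and 5.94.

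**Figure D5:**
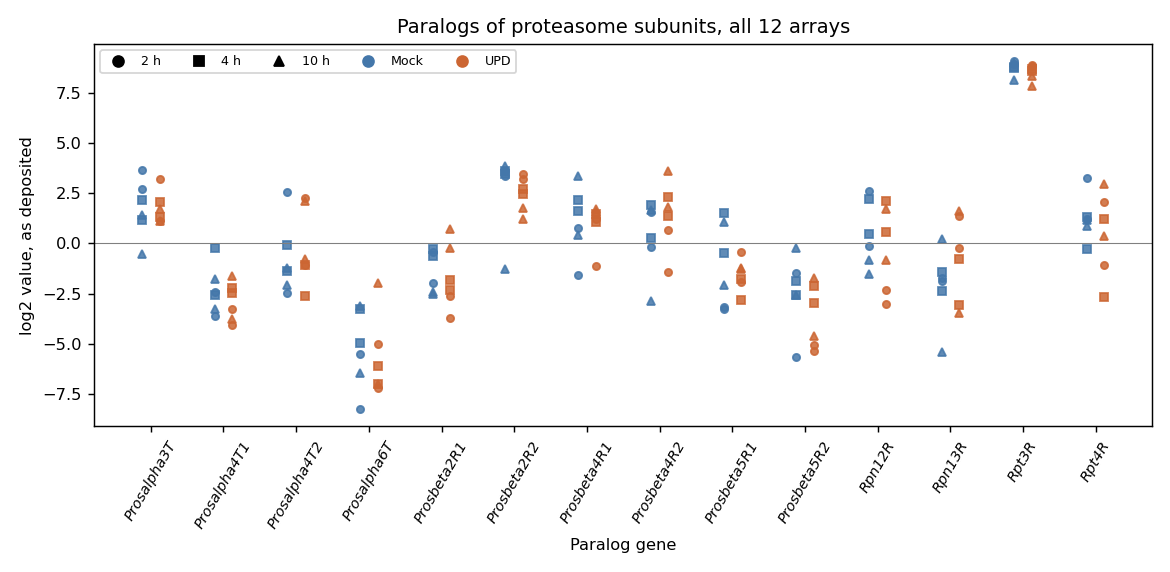
Deposited log2 values of the 14 paralogs on the 12 arrays, Mock in blue and UPD in orange, with circles for 2 h, squares for 4 h and triangles for 10 h. Rpt3R lies between 7.88 and 9.08, and each of the other 13 spreads over several log2 units around or below 3.86.

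Among the dim paralogs, Prosbeta2R1, a paralog of the trypsin-like subunit, was the only one called in any contrast. It stood at -2.63 and -3.72 on the UPD arrays of 2 h and at -0.24 and 0.74 on those of 10 h. The times did not overlap, and it rose by 3.43 ± 0.63 (SE, n = 2; limma adjusted p = 0.0249). On the Mock arrays it stood at -0.42 and -1.97 at 2 h and at -2.42 and -2.54 at 10 h. For UPD minus Mock at 10 h its difference was 2.73 ± 0.63 with a limma adjusted p of 0.0827. It was below 0 on 11 of the 12 arrays, a range in which the duplicates of the paralogs differed with a median SD of at least 0.64 in every group, against 0.02 to 0.56 for the canonical genes, and its call was lost in 9 of 17 alternatives.

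Genes that work with the proteasome were read from lists of ubiquitin genes, assembly factors and activators, shuttle factors and deubiquitinating enzymes, the p97 segregase with its cofactors, and transcriptional regulators. None of their measured members was called for UPD minus Mock at 2, 4 or 10 h. Of all probe sets, 0.00533%, 0% and 1.06% were called at these times. At 10 h the median differences were -0.01 for 4 ubiquitin genes, 0.00 for 4 assembly factors, -0.05 for 6 shuttle and deubiquitinating genes, -0.81 for 7 genes of the p97 list and -0.20 for 4 regulators, beside -0.41 for the brighter probe sets.

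The largest differences of each list at 10 h were Ubi-p63E, a polyubiquitin gene, at -0.20 ± 0.40, Sem1, a small lid subunit, at 0.35 ± 0.37, rngo, a shuttle protein of the Ddi1 family, at -0.87 ± 0.28, Plap, a p97 cofactor, at -1.08 ± 0.37, and Keap1, an adaptor of a ubiquitin ligase for the factor cnc, at -0.54 ± 0.33 (SE, n = 2). Their limma adjusted p-values lay between 0.168 and 0.87. From 2 to 10 h in UPD, rngo fell by 1.40 ± 0.28 from 9.55 to 8.14 (limma adjusted p = 0.03) and Keap1 fell by 1.47 ± 0.33 from 8.09 to 6.62 (limma adjusted p = 0.0387). Uch-L5R, a dim paralog of Uch-L5, rose by 2.83 ± 0.70 from -4.43 to -1.60 (limma adjusted p = 0.0474). In the p97 list 0 of 7 were called, where 9.46% of all probe sets were, and all 7 had both UPD 10 h arrays below both UPD 2 h arrays, as did 66.9% of the brighter probe sets. The calls of rngo and Keap1 each held in 5 of 19 alternatives, over which their differences reached -0.32 and -0.24 with the gene length trend removed, and that of Uch-L5R held in 3 of 17.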

How the data were processed

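Total RNA of 12 wells was hybridised to 12 Affymetrix arrays, per the labels. The authors deposited 1 table of log2 values for 18952 probe sets. That the scale is log2 is read from the values. No source used here names the software or the normalization behind it. The UPD arrays share a median of 2.33 and the Mock arrays one of 2.38, a shift of -0.05 between the media, and 26.2% to 32.0% of an array's values are below 0, so the number of arrays and the dim range limit the precision. After removal of 183 control probe sets, 18769 were fitted with limma 3.58.1 in R 4.3.3 (6 group means, 6 residual degrees of freedom, empirical Bayes moderation, Benjamini-Hochberg over all). Members were named through the platform annotation updated to RefSeq symbols. Given in full were the catalytic subunits, the 5 highest and the 5 lowest canonical genes for UPD minus Mock at 10 h and every called member; of the other lists, called genes and the largest difference at 10 h. Members and lists were chosen with earlier results of these data known. Replicate numbers did not pair the samples: deviations of same-numbered arrays correlated at -0.04, -0.03 and -0.05 at 2, 4 and 10 h. The fit was tested on simulated data with independent noise and 1 spread per gene. The simulated data held neither shifts shared by an array's genes nor a wider spread at 10 h, so that test does not cover these. Alternatives were quantile normalization, one median for the brighter probe sets of every array, a filter on dim probe sets, a variance trend with robust moderation, fewer arrays, a replicate block, each array left out and, added after the data were seen, removal of the gene length trend.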

Additional observations from a re-analysis of the deposited data

Results flagged for a closer look

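Prosbeta2R1, a dim paralog, had both UPD arrays above both Mock arrays at 10 h, with a difference of 2.73, and below them at 2 h, with -1.98, and at 4 h, with -1.64. The difference between its UPD effects at 10 and 2 h was tested in limma and had an adjusted p of 0.254. Its change from 2 to 10 h was 3.43 in UPD and -1.28 in Mock, which is the same test.

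Rpn12R, also dim, changed by 3.12 from 2 to 10 h in UPD and by -2.42 in Mock, with no overlap in either medium, and the limma test of that difference had an adjusted p of 0.397. Prosbeta5R1, also dim, had a UPD minus Mock difference of -2.80 at 4 h and of 2.04 at 2 h, without overlap at either time, and the difference between the times was not tested.

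Among canonical genes, Rpn1 differed between UPD and Mock by -0.82 at 10 h, 0.10 at 4 h and -0.15 at 2 h, without overlap of the arrays at any of the 3 times. Rpn5 differed by 0.40 at 4 h and -0.19 at 2 h, and Rpt5 by 0.13 at 4 h and -0.09 at 2 h, again without overlap. The differences that involve 4 h were not tested, and none of these UPD minus Mock differences was called. Of the brighter probe sets, 44.3% had both UPD arrays below both Mock arrays at 2 h and 36.8% at 10 h. At 4 h 17.9% had both above.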

How the results depend on the processing

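Members called for UPD minus Mock at 10 h numbered 0, but 1 under quantile normalization (Rpn2), 1 with one median per array (Prosbeta2R1), 2 among the brighter probe sets alone (Rpn1 and Rpn2), 1 with a variance trend (Rpn2) and 0 to 1 with an array left out (Prosbeta2R2 without Mock 10 h replicate 2). For Mock 10 h minus 2 h they numbered 0, but 1 with a variance trend (Rpn5) and 0 to 1 with an array left out (Prosbeta2R2 without Mock 10 h replicate 1). For UPD 10 h minus 2 h they numbered 2, but 0 under quantile normalization, 1 with one median per array, 1 with the replicate block, 3 among the brighter probe sets alone and 3 with a variance trend (Rpn1, Rpn2 and Rpn13 in both), 0 with the gene length trend removed, 0 with the arrays of 2 and 10 h alone and 0 to 4 with an array left out. The replicate block gave Rpn1 an adjusted p of 0.0797 there, kept Prosbeta2R1 at 0.0439, and moved all calls for UPD minus Mock at 10 h from 199 to 1. All calls for UPD minus Mock at 10 h were 578 under quantile normalization and 272 with one median per array. With a variance trend they were 1899 of 18769 probe sets, and among the brighter ones alone 1804 of 9384. For UPD 10 h minus 2 h they were 471, 635, 4020 and 3830 in the same settings, in this order. The replicate block gave 723 there, and removal of the length trend 1221 of 7821. For Mock 10 h minus 2 h, 845 were called with a variance trend. In the other 6 contrasts no member was called under any alternative.

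The member median for UPD minus Mock was 0.053 at 2 h with one median per array. At 4 h it was -0.020 under quantile normalization and -0.021 to 0.25 with an array left out. At 10 h it was 0.46 with one median per array and -0.56 to 0.14 with an array left out, being 0.11 without replicate 1 of UPD at 10 h and 0.14 without replicate 1 of Mock at 10 h. Core minus regulatory particle for UPD minus Mock at 10 h was 0.15 under quantile normalization, -0.021 with the length trend removed and 0.35 with paralogs. For UPD 10 h minus 2 h it was 0.25 and 0.032 in the first pair of settings, and for Mock 10 h minus 2 h 0.051 with the length trend removed.

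At 10 h against Mock, one median per array turned Prosbeta2 to 0.49, Prosbeta5 to 0.29, Rpn8 to 0.073, Rpn7 to 0.11, Ubi-p63E to 0.43 and Keap1 to 0.089. Quantile normalization turned Prosbeta2 to 0.025 and Keap1 to 0.028. Removing the length trend turned Prosbeta2 to 0.070, Rpn8 to 0.22, Ubi-p63E to 0.54, Sem1 to -0.055 and Keap1 to 0.29. With an array left out, Prosbeta2 ranged from -0.43 to 0.14, Prosbeta5 from -0.77 to 0.092, Prosbeta3 from -0.13 to 0.51, Rpn5 from -0.26 to 0.63, Prosalpha5 from -0.46 to 0.63, Prosbeta4 from -0.34 to 0.46, Prosalpha4 from -0.53 to 0.60 and Ubi-p63E from -0.58 to 0.17. The mean over several probe sets of a gene gave nothing to compare, since each member has 1. The cause of these changes was not tested. With 2 arrays a group and 26.2% to 32.0% of values below 0, differences in dim paralogs could not be measured well.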
